A study of Mus musculus with 2 samples.

Results

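Of the 3128 FLAG-HLF peaks on chromosomes 1 to 19, 668 had another peak close by on the same chromosome and formed 307 clusters. A peak was placed at its centre, 200 bp from its start. Members were chosen by distance alone: a peak belonged if another centre lay within 25 kb, and neighbours at most 25 kb apart were chained into 1 cluster. Members make up 21.4% of the autosomal peaks, and the other 2460 are called isolated here. The deposited list holds 3153 peaks in all, the remaining 25 being on X.

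The peaks come from 1 chromatin immunoprecipitation sequencing (ChIP-seq) library, made with an anti-FLAG antibody from cultured C57BL/6 mouse cells that are lineage marker-negative and positive for Sca-1 and c-Kit. This surface phenotype is enriched for blood stem and progenitor cells. The mice were 8 to 10 weeks old, the tissue is labelled blood, and the transgene, MigR1 3xFLAG-HLF/HLF, was delivered by retrovirus before 5 days of culture with SCF (50 ng/ml), IL-7 and Flt3L (10 ng/ml each) and IL-3 (5 ng/ml). The protein measured is therefore a tagged, virally expressed HLF rather than the endogenous one. A second library, from cells given the MigR1 empty vector under the same conditions, was not analysed here. With 1 library there is no replicate, and the intervals and p-values below cover counting error over peaks or clusters only. The list gives no read counts or peak scores, so the depth is unknown. Peaks could not be compared in strength, and a cell type could not be checked against its markers.

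HLF, hepatic leukemia factor, belongs to the PAR bZIP family of transcription factors, which bind DNA as dimers through a basic leucine zipper. Each partner contacts one arm of a nearly palindromic site, and C/EBP proteins and NFIL3 recognise related sites. Regulatory regions of blood genes commonly hold several transcription factor binding sites spread in the promoter, in introns and in flanking sequence. Neighbouring peaks can therefore mark separate elements of 1 locus, or a single broad region that peak calling divided.

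Sequence could be read where a clustered peak overlapped a promoter window, the stretch from 250 bases before to 50 after an annotated gene start in RefSeq (GRCm38.p6, the coordinates of mm10). Windows covered 16456 of the 20046 protein-coding genes on chromosomes 1 to 17 and 19, or 82.1%. On these chromosomes 47 of 653 clustered peaks overlapped 56 windows. Of those peaks, 6 carried at least 1 of 6 motifs, found in 7 of the windows. The motifs were the PAR bZIP forms TTACGTAA, TTATGTAA and TTACATAA (the last 2 being the same site on either strand), the C/EBP form TTGCGCAA, and TTGCATAA and TTATGCAA, which join one arm of each and are again 1 site on either strand. Among all 31396 windows of this length on these chromosomes, 1.96% held at least 1 of the 6. The stretches around the motifs are shown because they are the readable part of the clustered peaks where at least 1 of the 6 motifs was found. Only the Clec12a stretch holds a PAR bZIP form, and the others hold the C/EBP form or a joined one. Each runs 5′ to 3′ on the strand of the gene named, stops before the start site, and has the motif in capitals.
Mpc2: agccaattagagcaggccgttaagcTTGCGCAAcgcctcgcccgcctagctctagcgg
Man1b1: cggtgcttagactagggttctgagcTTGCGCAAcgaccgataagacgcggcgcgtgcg
Fam78a: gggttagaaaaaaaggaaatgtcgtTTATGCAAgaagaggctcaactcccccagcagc
Nt5c3: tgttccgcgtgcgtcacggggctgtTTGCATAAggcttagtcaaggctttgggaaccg
Clec12a: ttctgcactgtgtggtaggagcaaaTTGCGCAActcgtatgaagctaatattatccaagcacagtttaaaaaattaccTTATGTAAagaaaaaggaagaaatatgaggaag
Per1: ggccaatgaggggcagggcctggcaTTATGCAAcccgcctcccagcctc

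These 6 stretches lie at chr1:165461043-165461100 (plus strand, Mpc2), chr2:25332679-25332736 (plus, Man1b1), chr2:32084836-32084893 (minus, Fam78a), chr6:56901934-56901991 (minus, Nt5c3), chr6:129350079-129350189 (plus, Clec12a) and chr11:69098900-69098948 (plus, Per1). The Man1b1 site is shared with AA543186, a gene that starts close by on the opposite strand. In all 6 peaks the motif nearest the centre was at most 20 bp from it, with a median of 5 bp. Clec12a, encoding a C-type lectin receptor of myeloid cells, had the C/EBP form at the peak's centre and the PAR form TTATGTAA 52 bp from it. Per1, encoding a repressor of the circadian clock, had TTATGCAA at the centre of its innermost peak, just before an internal start site. Mpc2 serves in the uptake of pyruvate by mitochondria, Man1b1 in N-glycan trimming and Nt5c3 in nucleotide breakdown.

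The isolated peaks were searched in the same way. Of 150 isolated peaks that overlapped a window, 26 had a motif in the window, and in 25 of these it lay inside the peak. The median distance to the centre over the 26 was 12 bp, and in 16 of the 26 it was within 25 bp. Among the windows themselves, 7 of the 56 at clustered peaks (12.5%) and 26 of the 169 at isolated peaks (15.4%) held a motif. The C/EBP form TTGCGCAA was in 4 windows at clustered peaks, of which those of Man1b1 and AA543186 hold the same site, in 2 at isolated peaks and in 56 of all 31396. At least 1 of the 3 PAR forms was in 1 window at clustered peaks (1.79%), in 13 at isolated ones (7.69%) and in 334 of all windows (1.06%). Differences in single forms were not tested. The 3 PAR forms together were compared with each cluster entered through its peak of lowest coordinate, which left out the Clec12a peak. They were in 0 of 24 such peaks that overlapped a window and in 13 of 150 isolated peaks (8.67%). Fisher's exact test (two-sided) gave p = 0.219, adjusted p = 0.784 over 6 comparisons. With 1 peak per cluster, 2 of 24 peaks (8.33%, exact 95% interval 1.03 to 27.0%) had a motif in a window, against 26 of 150 isolated peaks (17.3%, 11.6 to 24.4%). The difference was -9.00 percentage points (95% interval -18.1 to 9.28), and Fisher's exact test (two-sided) gave p = 0.375, adjusted p = 0.791 over 6 comparisons.

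Most clusters were pairs. There were 262 pairs, 37 clusters of 3 peaks, 7 of 4 and 1 of 5, so that 45 clusters of 3 or more held 144 of the 668 members. The 361 gaps between neighbouring members had a median of 9.70 kb, with quartiles at 3.62 and 17.4 kb. From first to last centre the clusters spanned a median of 11.2 kb, from 0.525 kb to 61.3 kb. Spans were under 5 kb in 90 clusters, from 5 to under 10 kb in 49, and 10 kb or more in 168.

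In 119 clusters (38.8%) every member lay inside 1 and the same protein-coding gene, and in 91 (29.6%) every member lay in the same stretch between protein-coding genes, called intergenic here. A further 76 (24.8%) had members both inside and outside genes, 14 (4.56%) had members in different genes, and 7 (2.28%) had all members outside with a gene between them. In 242 clusters (78.8%) all members had the same protein-coding gene as their nearest, by distance to either gene end, at whatever distance. The limit on the gaps favours a shared nearest gene, and no expected share was computed. This share was 82.8% among the 262 pairs and 55.6% among the 45 larger clusters, which also spanned more sequence. The median number of protein-coding genes touching a cluster or its 20 kb flanks was 1, and 48 clusters had none. The plot of sizes and spans shows the large number of pairs and the shorter spans of clusters that stay in 1 gene or 1 intergenic stretch. A longer span is more likely to cross a gene end by construction, and no expected spans were computed.

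**Figure D1:**
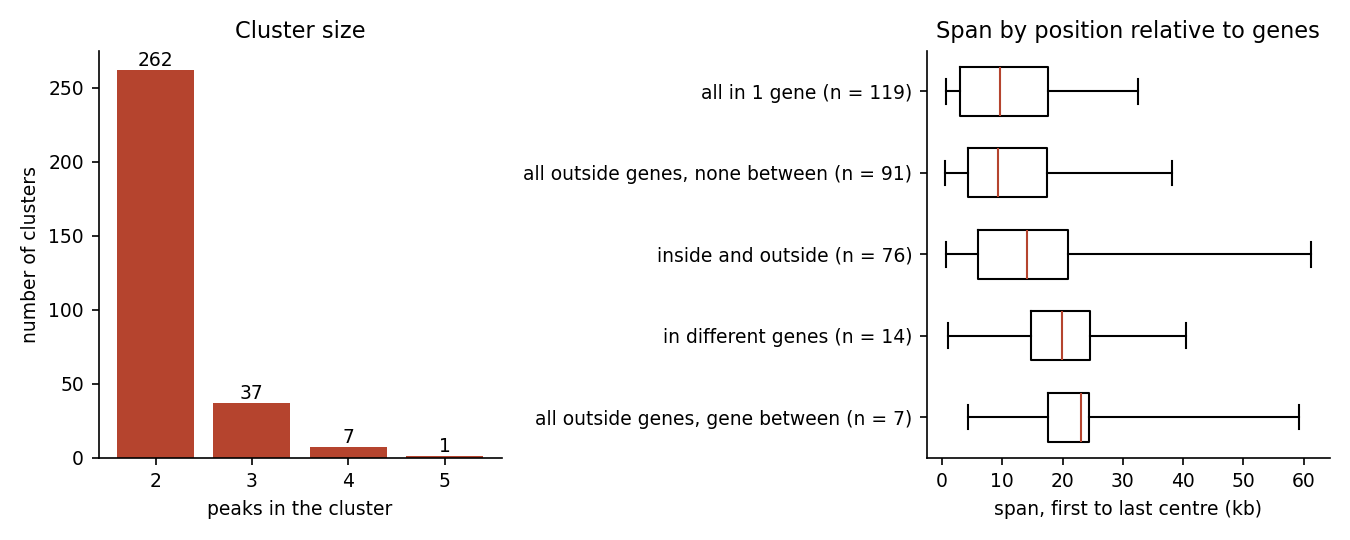
Left, number of clusters by the number of peaks they hold. Right, span in kb from first to last peak centre for the 307 clusters by position relative to protein-coding genes: line, median; box, quartiles; whiskers, lowest and highest. Pairs account for 262 clusters, and the medians were 9.70 kb for clusters within 1 gene and 9.33 kb for those in 1 intergenic stretch, against 19.9 kb for those in different genes.

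The largest cluster, with 5 peaks over 53.3 kb, lay at B4galt5 (chr2:167335107-167388812). This gene encodes a galactosyltransferase that makes lactosylceramide. The first peak was inside B4galt5, 13.9 kb from its end, and the second 2.23 kb outside. The other 3 continued to 33.4 kb from B4galt5 and beyond, the last being 33.0 kb from the next gene, Slc9a8, a sodium/proton exchanger gene.

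The densest of the clusters of 4 was at Trib1 (chr15:59648348-59653218), which encodes a pseudokinase that directs C/EBPα to degradation. Its 4 peaks fell within 4.47 kb. One was 0.107 kb outside the gene, and the others were 1.97, 3.73 and 4.08 kb inside. All 4 thus lay at or in a gene 8.45 kb long.

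Irf2bp2, encoding a corepressor partner of IRF2, was bracketed by its cluster (chr8:126573038-126598881). The 4 peaks were 15.1 and 2.40 kb outside one end and 2.46 and 4.70 kb outside the other, with none in the gene body. The cluster at Il1a and Il1b, the genes of the inflammatory cytokines interleukin-1α and interleukin-1β, also had no peak in a protein-coding gene body (chr2:129313848-129373557). Its 4 peaks extended over 59.3 kb. One lay 3.86 kb from Il1a, the second between the 2 genes at 26.3 kb from Il1b, and the last 2 lay on either side of Il1b at 4.24 and 2.19 kb. The peak at 2.19 kb was inside the lncRNA gene Il1bos.

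Clusters of 4 also lay inside or across other genes. At M1ap (chr6:82996788-83017436), named for a role in meiosis, all 4 peaks were in the gene body, 13.1 to 33.3 kb from its nearer end. The last of them was also 13.7 kb from Dok1, an adaptor gene that restrains tyrosine kinase signalling. At Cdc27 (chr11:104520589-104556393), a subunit gene of the anaphase-promoting complex, 3 peaks were in the body and the fourth was in the overlapping Myl4. At Strn3 and Ap4s1 (chr12:51656325-51696498), which overlap each other, each gene held 2 peaks. The longest cluster, 61.3 kb, joined Kat7, encoding the histone acetyltransferase HBO1, to Fam117a (chr11:95292036-95353733). Its peaks were 18.0 kb inside Kat7, 0.431 kb outside Kat7, 3.74 kb outside Fam117a and 16.5 kb inside Fam117a.

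**Figure D2:**
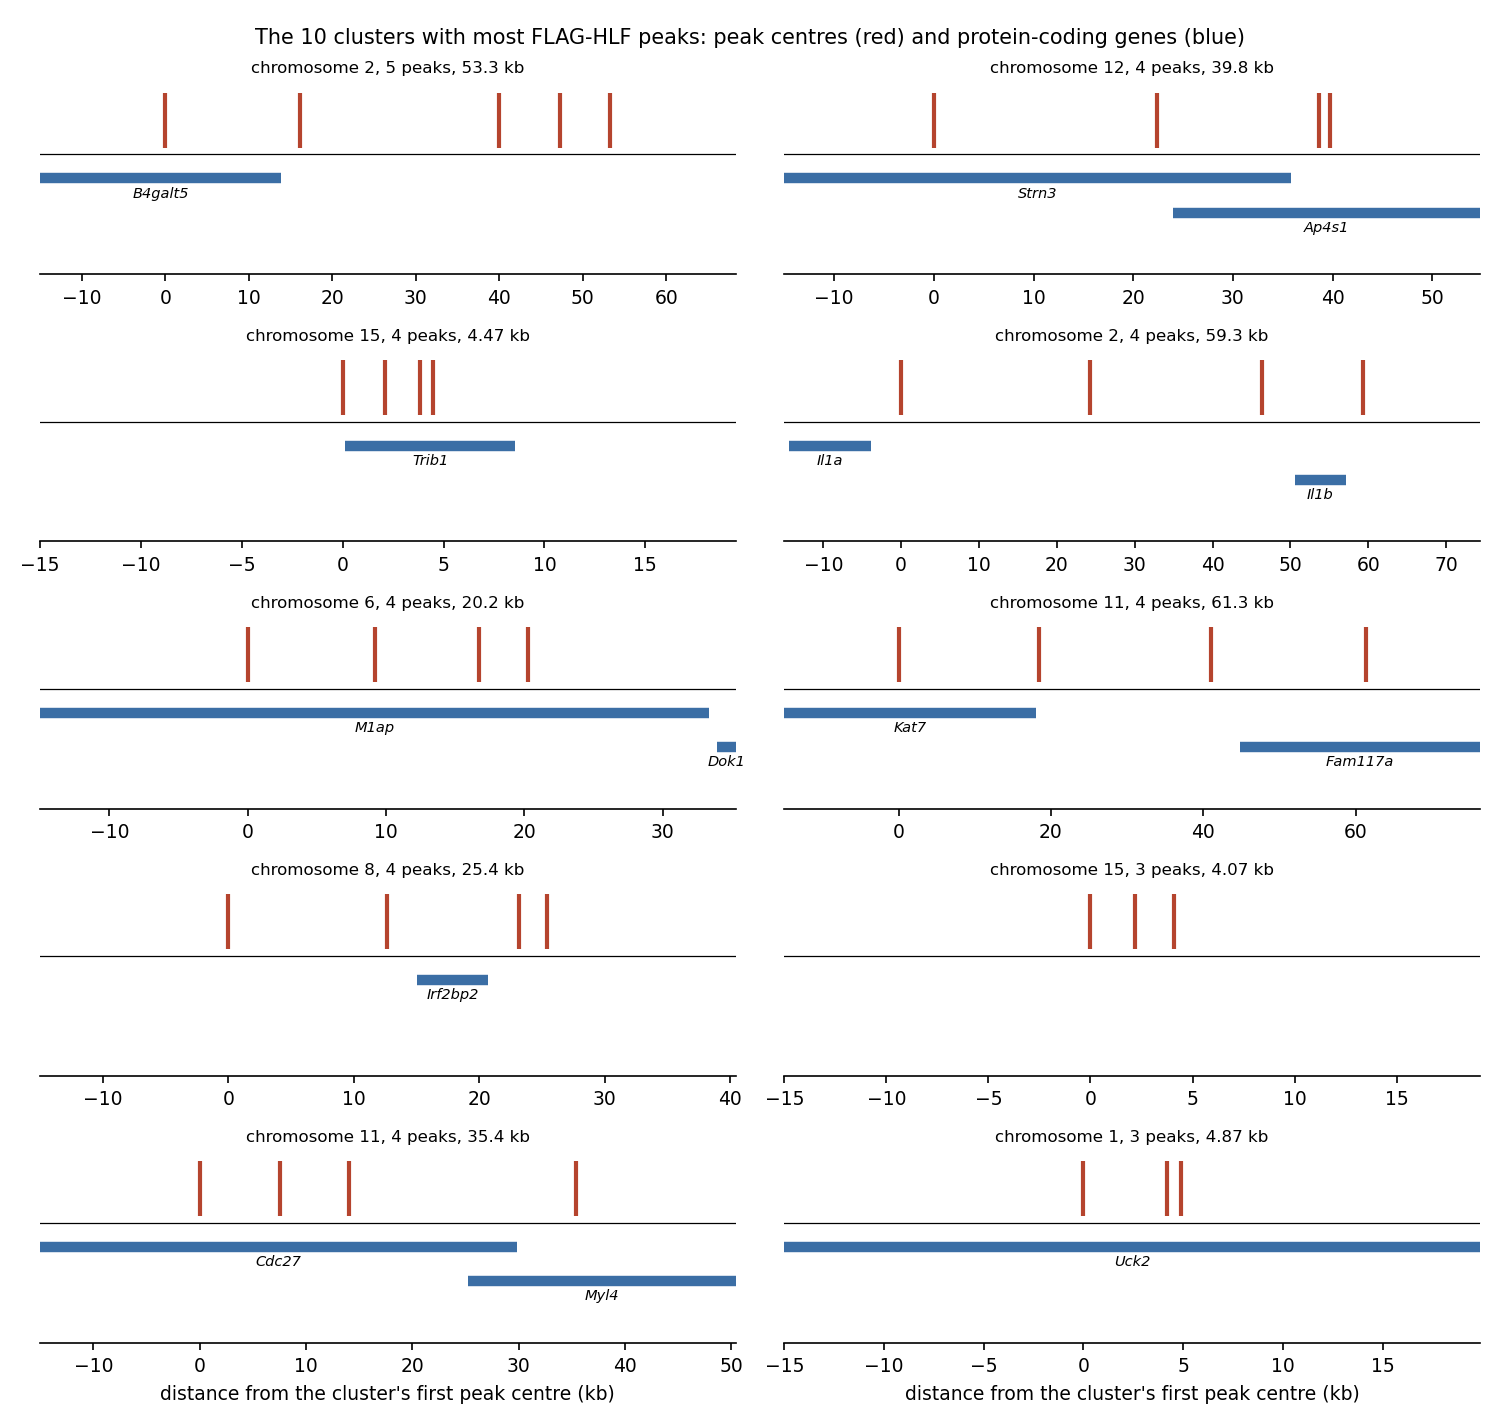
The 10 clusters with most peaks, ordered down the left column and then the right; x axis, distance in kb from the cluster's first peak centre. Red lines are peak centres and blue bars protein-coding genes within 15 kb of the cluster; the bracketing of Irf2bp2 and Il1b and the packing of 4 peaks into 4.47 kb at Trib1 can be read directly.

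The 2 tightest clusters of 3 followed in this order of size. One (chr15:74926670-74931143) spanned 4.07 kb with no protein-coding gene within 20 kb. Its 3 peaks were all inside the lncRNA gene Gm39556, and the nearest protein-coding gene, Ly6e, was 24.1 to 28.2 kb away. The other (chr1:167242104-167247374) spanned 4.87 kb inside Uck2, a kinase gene of the pyrimidine salvage pathway, at 19.4 to 24.3 kb from the nearer gene end.

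The closest pairs described here lay away from gene ends. The closest 2 centres were 525 bp apart, leaving 125 bp between the intervals, and lay about 21 kb from Slc25a17 (chr15:81297692-81298616). A pair 558 bp apart was near Ffar3, a short-chain fatty acid receptor gene, at 12.0 and 11.4 kb. A pair 561 bp apart had Klf6, a zinc finger transcription factor gene, as its nearest gene at 350.0 and 349.4 kb. Another, 608 bp apart, was 42.1 and 42.7 kb from Cdk19, a Mediator kinase gene. Whether such pairs are 2 sites or 1 region divided by peak calling was not tested. With peaks closer than 1 kb merged, 627 peaks were still clustered.

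Gene bodies with several clustered peaks were few. Of 20556 protein-coding genes on chromosomes 1 to 19, 227 held at least 1 clustered peak and 129 held 2 or more, which is 0.628% of the genes. These 129 genes had a median length of 87.4 kb, against 17.6 kb for all genes. Genes whose body held isolated peaks only had a median of 69.3 kb. Whether gene length bears on these counts was not tested.

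M1ap and Gab2 held most, with 4 clustered peaks each. Gab2, encoding a docking protein downstream of cytokine receptors, is 227 kb long. Its peaks formed 2 pairs, 5.11 and 1.11 kb wide, deep in the gene at 92.7 to 98.8 kb from the nearer end. The rest of the 14 genes with at least 3 held 3 each, among them Trib1 and Cdc27. Cytip, encoding a partner of cytohesins in lymphoid and myeloid cells, had 3 over 32.6 kb, and Lcp1, the gene of the leukocyte actin-bundling protein L-plastin, had 3 over 16.8 kb. In Mbp, best known for myelin basic protein, the 3 peaks were 48.5 to 51.0 kb from the nearer gene end. Rnf24 (7.99 kb) and the predicted gene LOC108168726 (18.4 kb) each had 3 as well.

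The pathway lists gave a view of blood and clock genes. Counting a gene when a clustered peak lay in its body or within 20 kb, 452 of the 20556 protein-coding genes (2.2%) were near a cluster. Of 268 listed genes on the autosomes, 22 were (8.21%), the control lists for liver and neuronal genes included. The lists were put together with earlier results of these peaks known, so this count is not independent evidence. In every list but the liver one, more genes had a peak of any kind near them than had a clustered one. Among the 28 granulocyte and monocyte genes these numbers were 14 and 4, and among the 27 cytokine signalling genes 10 and 2. The count of 22 therefore does not separate clustered peaks from peaks in general. Whether listed genes lie nearer to clustered than to isolated peaks was not tested. Among the control lists, liver genes had 2 of 19 (10.5%, Apoa2 and G6pc) and neuronal genes 1 of 19 (5.26%, Grin1), and no difference between lists was tested. A cluster at one gene often counts for its neighbours too. The 2 peaks counted for Apoa2 lay inside Fcer1g, an Fc receptor subunit gene, and 0.748 kb apart.

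Granulocyte and monocyte genes had 4 of 28 members near a cluster, namely Mpo, Itgb2, Cd68 and Id1. Id1, encoding an inhibitor of bHLH factors, had a cluster of 3 over 5.54 kb that began at the gene and ran outward. Itgb2, the gene of the integrin β2 subunit, had a pair 0.952 kb apart just inside one end, at 0.751 and 1.70 kb. The cluster near Mpo, encoding neutrophil myeloperoxidase, had 3 peaks over 30.5 kb, the first 2 of them inside the neighbouring Tspoap1. Its first peak was also 2.75 kb from Mir142, a microRNA gene abundant in blood cells. Of 919 microRNA hairpins on these chromosomes, 7 had a clustered peak within 20 kb (0.762%). Cd68 was counted through 1 peak in a dense stretch where 8 other genes were counted as well.

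The circadian and PAR bZIP list had 3 of 23, and each of the 3 genes had a clustered peak within 0.285 kb of a gene end. At Per1 the 3 peaks fell within 6.04 kb (chr11:69092689-69099129), and the first was nearer to Vamp2, at 0.507 kb. At Per2 a peak 0.093 kb outside the gene was paired with one 21.7 kb away, in the body. At Tef, a PAR bZIP paralogue of HLF, a peak 0.145 kb outside the gene was paired with one 7.70 kb away, in the body. The Tef promoter window lay wholly inside its peak and held none of the 6 motifs.

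Stem and progenitor regulators had 3 of 29. Lmo2, a bridging subunit of a stem cell transcription factor complex, had a pair 1.14 kb apart outside the gene. Zbtb16, encoding the zinc finger factor PLZF, had a pair 5.18 kb apart in the body. Hhex, a homeobox gene, was counted through the inner peak of a pair 24.2 kb wide, close to the limit of the rule. B lineage genes had 2 of 25, both with a pair in the body: Ikzf3 (4.86 kb apart), encoding the zinc finger factor Aiolos, and Flt3 (3.73 kb apart), a receptor of early lymphoid progenitors. No member of the T lineage list (0 of 25) or of the NK lineage list (0 of 19) was near a cluster. These counts allow shares of up to 13.7% and 17.6% by exact 95% intervals. Both intervals include the 2.2% of all protein-coding genes, so the counts show no shortage. A peak of any kind was near 3 of the T lineage genes and 4 of the NK lineage genes.

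Other lists had 1 or 2 members each. Cytokine signalling had 2 of 27. The transcription factor gene Stat3 had 1 peak inside and 1 nearer to Cavin1, 13.6 kb apart, and Ifngr1, a subunit gene of the interferon-γ receptor, had 3 over 23.1 kb that bracketed the gene. Megakaryocyte and erythroid genes had 2 of 20: Vwf, the von Willebrand factor gene, with 2 peaks in the body 23.0 kb apart, and Tfrc, the transferrin receptor gene, through a pair inside its neighbour Tnk2. Apoptosis had 2 of 21. Bmf, a pro-apoptotic BH3-only gene, had a pair 6.87 kb apart, and Bcl2l1, encoding BCL-XL, was counted through the cluster at Id1. AP-1 and C/EBP bZIP genes had 1 of 25, Fosl2, with a pair in the body 0.933 kb apart.

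The next comparison asked whether clusters sit elsewhere than isolated peaks do. Distance to genes was not used to choose the members, so it could be tested, and each cluster entered once, through its peak of lowest coordinate. Of 307 clusters, 35 (11.4%, exact 95% interval 8.07 to 15.5%) were within 1 kb of a protein-coding gene's end, and of 2460 isolated peaks 276 were (11.2%, 10.00 to 12.5%). The odds ratio was 1.02 (95% interval 0.701 to 1.48; Fisher's exact test, two-sided, p = 0.924, adjusted p = 0.924). The difference of 0.181 percentage points had a 95% interval of -3.17 to 4.39. With each cluster's peak of highest coordinate instead, the odds ratio was 0.702, so the direction depended on which peak stood for the cluster. The odds ratio for gene bodies (1.11) and for the motif (1.19) crossed 1 in the same way, with no difference past the threshold.

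Gene bodies held 54.1% of clusters (166 of 307) and 55.4% of isolated peaks (1363 of 2460), an odds ratio of 0.948 (0.747 to 1.20; Fisher's exact test, p = 0.670, adjusted p = 0.804). Positions outside genes and over 20 kb from any gene end held 16.9% (52) and 19.2% (472), an odds ratio of 0.859 (0.627 to 1.18; Fisher's exact test, p = 0.395, adjusted p = 0.791). Promoter windows overlapped 8.00% of clusters (24 of 300) and 6.27% of isolated peaks (150 of 2392), an odds ratio of 1.30 (0.830 to 2.04; Fisher's exact test, p = 0.261, adjusted p = 0.791). None of these differences passed the threshold of 0.05. The 95% interval of the difference, clusters minus isolated peaks, was -7.26 to 4.50 percentage points for gene bodies, -6.36 to 2.59 for distal positions and -1.04 to 5.47 for promoter windows. Over single peaks, the median distance to a gene end was 13.3 kb for clustered and 14.3 kb for isolated peaks, and the upper quartiles were 33.3 and 43.6 kb. Relative to the nearest RefSeq start, 47.8% of clustered and 46.2% of isolated peaks lay upstream.

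Local gene number depended on how far it was counted. At least 3 protein-coding genes within 50 kb were found for 33.6% of clusters (103 of 307) and 31.9% of isolated peaks (784 of 2460), an odds ratio of 1.08 (0.839 to 1.39; Fisher's exact test, p = 0.560, adjusted p = 0.804). Counted within 100 kb, the shares were 64.2% (197) and 54.8% (1347), an odds ratio of 1.48 (1.16 to 1.89; Fisher's exact test, p = 0.00185, adjusted p = 0.0111). At this distance the share was higher among clusters, while the median number of genes over single peaks was 3 for both kinds of peak. The 100 kb count was 1 of 45 alternative settings, and its adjustment covered 6 comparisons, not all 45. It was made only with each cluster's peak of lowest coordinate, so it is no firm difference. Whether gene number bears on clustering was not tested.

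**Figure D3:**
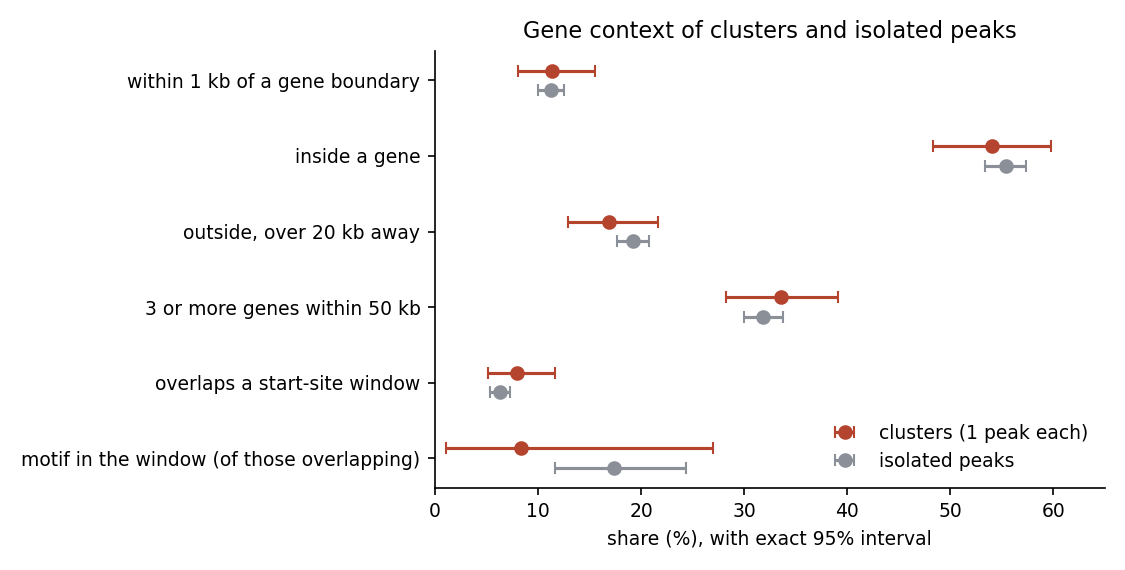
Shares of the 307 clusters (red, 1 peak each) and of the 2460 isolated peaks (grey) in 6 gene contexts, in percent; bars, exact 95% intervals. Start-site windows were searched on 18 autosomes and the motif share is over peaks that overlap a window; in each row the 2 intervals overlap.

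The number of clustered peaks itself was fixed by the rule and is given without a test, beside the number that distance to genes would give. Peaks were divided into 10 classes, inside or outside protein-coding genes and by distance to the nearest gene end (up to 1, 5, 20 and 100 kb and beyond). If the peaks of each class were spread evenly over the sequence of that class on their chromosome, 279 would be clustered (8.91% of peaks) in 136 clusters. The observed 668 is 2.40 times that, and the observed 307 clusters 2.26 times. With no classes the expected number was 203, a ratio of 3.28. Assembly gaps stayed in the sequence over which peaks were spread, and their effect on the expected numbers was not tested.

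The ratio was highest for close neighbours. There were 23 gaps of up to 1 kb where 6.30 were expected (3.65 times), 30 of 1 to 2 kb (6.13 expected, 4.90 times) and 67 of 2 to 5 kb (18.0 expected, 3.71 times). Expected gaps of up to 1 kb included distances below the smallest observed gap, 525 bp, and the effect on that ratio was not tested. From 5 to 10 kb the ratio was 2.20 and from 10 to 25 kb 2.12. Beyond the limit of the rule it was lower, at 1.71 from 25 to 50 kb, 1.45 from 50 to 100 kb and 1.08 from 100 to 250 kb. The ratio was thus still above 1 beyond 25 kb. Bins this wide cannot show whether it changes sharply at that limit.

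**Figure D4:**
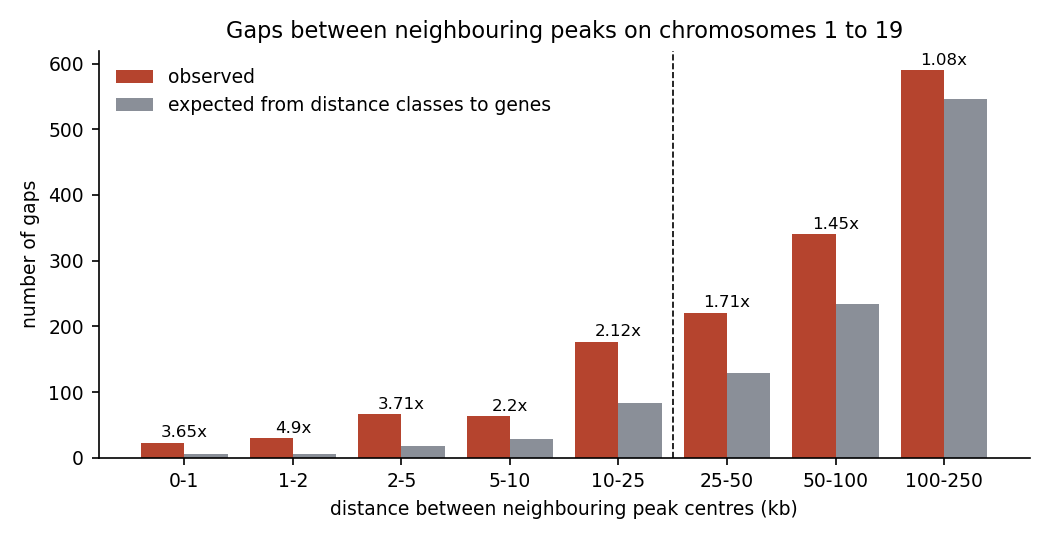
Number of gaps between neighbouring peak centres on chromosomes 1 to 19 by distance in kb: red, observed; grey, expected from classes of distance to genes; above each pair, observed over expected. The dashed line marks 25 kb; the ratio falls from 4.90 at 1 to 2 kb to 1.08 at 100 to 250 kb.

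The gaps closest to the limit were picked by that closeness, so they do not bear on how the ratio changes across it. The widest gaps inside it were 24.7 kb (Ccl17 to Coq9), 24.5 kb (near Igsf21) and 24.2 kb (Il1a to Il1b). The narrowest outside were 25.1 kb (at Cd9, where the first peak belonged to another cluster), 25.2 kb (at Bmf, where the second did) and 25.2 kb (near Cd24a, where both were isolated). The median distance from a cluster to the next peak was 121 kb, and 58 clusters (18.9%) had a further peak within 50 kb.

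Every autosome had more clustered peaks than the classes gave, with ratios from 1.38 to 3.19. Chromosome 6 had the highest share, 59 of 202 peaks (29.2%, exact 95% interval 23.0 to 36.0%; 9.15% expected). Chromosome 4 had the lowest, 24 of 202 (11.9%, 7.76 to 17.2%; 8.60% expected). On chromosome 11, with the highest expected share (13.1%), 57 of 244 peaks were clustered (23.4%, 18.2 to 29.2%). Peaks of a cluster are not independent, so these intervals are too narrow. The order of chromosomes, including which is highest and which lowest, is not resolved.

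**Figure D5:**
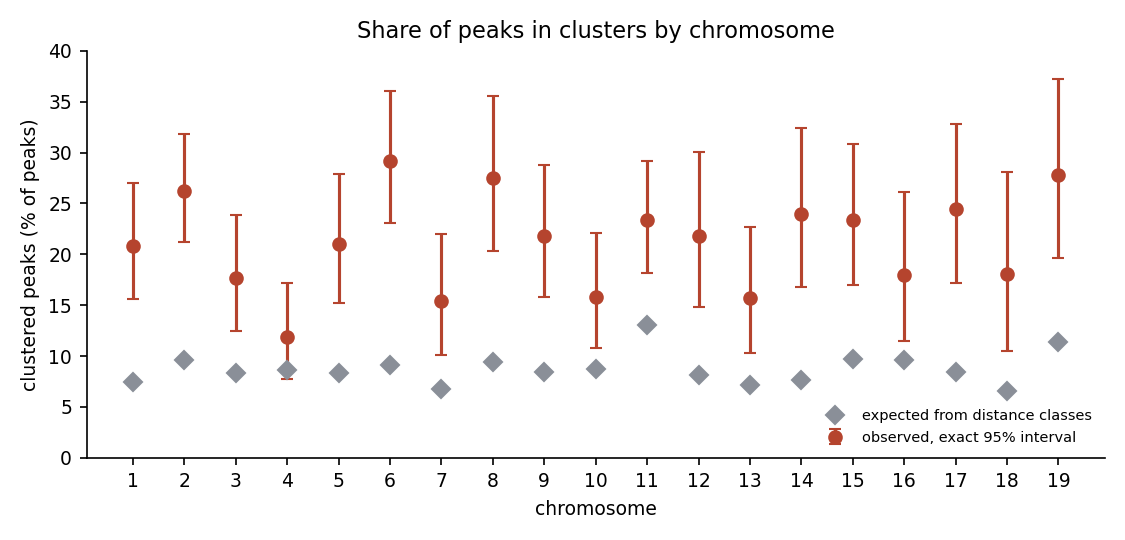
Share of each autosome's peaks that are clustered, in percent (red; bars, exact 95% intervals over peaks) and the share expected from classes of distance to genes (grey). Observed shares run from 11.9% on chromosome 4 to 29.2% on chromosome 6 and lie above the expected value on all 19 autosomes.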

How the data were processed

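The file used is the peak list deposited for the FLAG-HLF library: 3 columns (chromosome, start, end), all 3153 intervals 400 bp wide, with no score or count. Per the submitters' processing notes, the tools were Bowtie2 2.0.6 and MACS2 2.0.10 and the build mm10. How the authors set the peak threshold or used the control library is not given in the sources used here. Gene ends, promoter windows and microRNA hairpins came from RefSeq tables (GRCm38.p6), leaving out gene rows that start below 3 Mb, taken here as scaffold coordinates; no genome sequence was used, and promoter windows were not used for chromosome 18. Clusters, shares and expected numbers were computed in Python 3.11.15 with numpy 2.4.6, pandas 2.3.3 and scipy 1.17.1. The expected number is a closed-form sum over positions every 100 bp and was checked on simulated data. Fisher's exact test (two-sided) compared the shares, with Woolf intervals for odds ratios, Newcombe intervals for differences, exact (Clopper-Pearson) 95% intervals for shares and Benjamini-Hochberg adjustment over 6 comparisons. The members and gene lists were chosen with earlier results of these data known. Of 275 listed symbols, 268 matched genes on chromosomes 1 to 19. Genes were named when they held or neighboured the 10 clusters with most peaks, the 5 closest pairs, the 3 longest clusters or the gaps next to 25 kb, were among the 10 with most clustered peaks in the body, or were listed genes near a cluster; genes named with promoter motifs, Fcer1g, Gm39556, Il1bos, Mir142, Tnk2 and Cavin1 were chosen after their values were seen. One of the 5 closest pairs is not reported here.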

Additional observations from a re-analysis of the deposited data

How the results depend on the processing

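No paired analysis was possible because 1 library was analysed, so no replicate could be left out either. Stricter peak thresholds could not be tried without peak scores. Of 45 alternatives for the 6 comparisons of clusters with isolated peaks, 1 passed the threshold: 3 or more genes within 100 kb (odds ratio 1.48). Adjustment ran within each setting over 6 comparisons, not over the 45 alternatives. The other adjusted Fisher's exact p-values began at 0.195, and 11 odds ratios crossed 1, none past the threshold. For gene ends within 1 kb the odds ratio was 0.702 with each cluster's highest peak, 0.824 with every peak as 1 unit, 0.890 at a neighbour distance of 50 kb, 0.985 with peaks within 1 kb merged, 0.980 without chromosomes 11 and 19, and 0.973 at 5 kb. For gene bodies it was 1.11, and for the motif 1.19, with the highest peak. For distal positions it was 1.02 at a neighbour distance of 10 kb, for promoter windows 0.976 at 50 kb, and for 3 or more genes within 50 kb 0.979 without chromosomes 11 and 19. The observed over expected ratio was 2.98 at 10 kb, 2.01 at 50 kb and 3.28 without distance classes. At 10 kb there were 167 clusters and 14 listed genes near them; fewer peaks qualify by construction. Of 48 alternatives for single lists, 12 moved the count by over 1.5 times. Other causes were not tested.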
